A study of Danio rerio with 8 samples.

Results

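The crystallins are the structural proteins of the eye lens. The genes described here are the alpha, beta and gamma crystallin genes of the zebrafish, taken as every entry of the deposited count table whose name begins with cryaa, cryab, cryba, crybb, crybg or cryg. The rule found 58 of the 36109 entries: 3 alpha, 13 beta and 39 gamma crystallin genes, crybgx, and the pair crybg1a and crybg1b. The last pair encodes long proteins that carry the beta/gamma fold and are known in mammals outside the lens. They are given apart from the 56 lens crystallin genes. Cryptochromes and the zeta, lambda and mu crystallins, whose names also start with cry, were not matched.

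RNA was taken from whole wild-type zebrafish embryos of the AB strain at 24 hours post-fertilization (hpf). The E64d group was kept in E64d at 3 µM, which enters cells and inhibits cysteine proteases, and the DMSO group in the solvent dimethyl sulfoxide, stated as 0.5% for both groups. Both treatments ran from 1 to 24 hpf in the medium labelled AFW-PTU, after a small cut in the chorion, and the medium was not replaced. Each group had 4 libraries, each made from 7 whole embryos kept in 1 well, so the lens was a small part of every sample. Below, pool 1 to pool 4 are the libraries by the replicate numbers of the labels. Library totals lay between 29422983 and 37309883 counts. DMSO pool 2 stood apart: its mean correlation with the other libraries (log2 CPM over all tested genes) was 0.962, and that of the other 7 libraries was 0.968 to 0.975. Levels are given as CPM, the count per 1000000 of a normalized library total, and are not corrected for transcript length. They are therefore compared between samples. Between genes, only a shared threshold is applied. Fewer lens cells and less RNA per lens cell cannot be told apart in such samples.

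Lens crystallins fall into families with separate roles. Alpha crystallins are small heat shock proteins that hold other lens proteins in solution, and alpha B crystallin is also abundant in mammalian muscle and heart. Beta crystallins, with acidic (cryba) and basic (crybb) members, form dimers and larger complexes, whereas gamma crystallins are compact monomers that allow dense packing. Fish lenses are rich in the methionine-rich gamma M group. Gamma N crystallins have features of both the beta and the gamma family, and gamma S is a gamma crystallin of the lens cortex in mammals. Many beta and gamma crystallin genes are expressed as lens cells elongate into fibres.

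At 24 hpf most beta crystallin genes reached a threshold of 1 CPM, while most gamma crystallin genes and all 3 alpha crystallin genes did not. The threshold is not corrected for transcript length, and a gene below it need not be silent: 23 of the 58 genes had counts in all 8 libraries. A gene was counted as on where its mean over the 8 libraries was at least 1 CPM. By that rule 16 of the 58 genes were on: 10 of 13 beta crystallins, 4 of 39 gamma crystallins (crygn2, crygmx, crygmxl2 and crygm2d8) and both crybg1 genes. Nearest to the threshold were crygmxl2 on the inside, with a mean of 1.02 CPM, and crygm2d13 on the outside, with 0.713 CPM. A further 7 genes passed the count filter of the test with means of 0.306 to 0.713 CPM. The other 35 were not tested, and 8 of them had a count of 0 in all 8 libraries. A count of 0 allows a level of up to 0.0779 to 0.0985 CPM in a library (3 counts, counting error only). Most low counts were even, and the limit is higher if each fragment was counted through both of its mates.

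**Figure D1:**
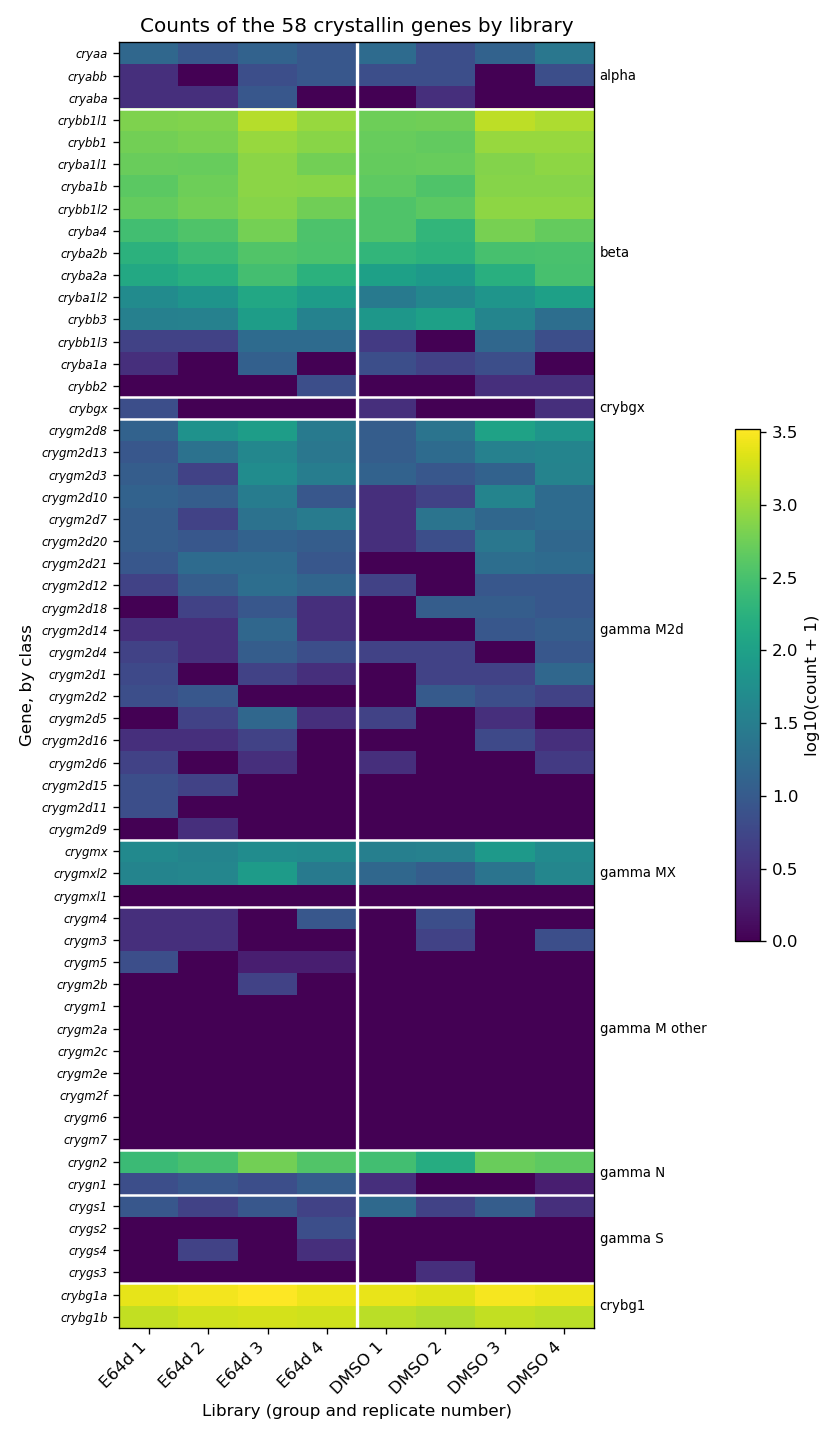
Counts of the 58 crystallin genes, as log10(count + 1) by colour, in the 4 E64d libraries (left of the white line) and the 4 DMSO libraries (right). Rows are genes ordered by class and then by total count. The 23 rows with counts in every library include 10 of the 13 beta rows, crygn2, crygmx, crygmxl2 and the crybg1 pair. Most gamma M rows are at or near 0.

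None of the alpha crystallins was on. cryaa, the alpha A chaperone gene, had 14, 8, 12 and 8 counts in E64d pools 1 to 4, against 16, 6, 12 and 24 counts in DMSO pools 1 to 4. The groups overlapped (log2 fold change of E64d over DMSO -0.49 ± 0.55, SE, adjusted p = 0.69 by edgeR). The alpha B genes cryaba and cryabb were not tested: cryaba had 12 counts summed over the E64d pools and 2 over the DMSO pools, and cryabb had 16 over the E64d pools and 18 over the DMSO pools. In the same libraries the muscle actin gene actc1b stood at 4533 ± 270 CPM in E64d and 4803 ± 648 CPM in DMSO (SD, n = 4), so muscle RNA was present in libraries with few or no alpha B counts. Of 10 other small heat shock protein genes listed for comparison, 6 had a mean of at least 1 CPM in both groups (hspb1, hspb6, hspb7, hspb8, hspb11 and hspb12), among them hspb1 and hspb8 (150.9 ± 8.44 and 157 ± 4.24 CPM in E64d, 170.7 ± 17.2 and 153.7 ± 7.12 CPM in DMSO).

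Among beta crystallins, crybb1, a basic member, stood at 19.3, 19.3, 24.7 and 26.1 CPM in E64d pools 1 to 4, against 15.8, 13.6, 29.3 and 29.2 CPM in DMSO pools 1 to 4. The basic gene crybb1l1 stood at 22.7, 21.0, 35.2 and 31.5 CPM in E64d, against 17.4, 16.8, 44.9 and 37.3 CPM in DMSO. In both genes pools 3 and 4 were high and pools 1 and 2 low in either group, and the groups overlapped. The basic gene crybb1l2 stood at 16.0, 17.1, 19.9 and 18.5 CPM in E64d, against 11.2, 12.4, 25.7 and 25.7 CPM in DMSO. The E64d pools lay inside the range of the DMSO pools.

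The acidic beta crystallin gene cryba1b stood at 13.8, 16.4, 21.1 and 25.9 CPM in E64d, against 13.9, 10.5, 23.5 and 23.3 CPM in DMSO. Its relative cryba1l1 stood at 17.0, 14.6, 21.3 and 19.3 CPM in E64d, against 15.3, 14.8, 22.6 and 25.4 CPM in DMSO. The pools again split into low numbers 1 and 2 and high numbers 3 and 4 within each group. cryba4 stood at 9.10, 10.2, 15.7 and 11.3 CPM in E64d, against 11.4, 5.95, 19.3 and 14.7 CPM in DMSO, again with overlap. The cryba2 pair showed the same spread: cryba2a ranged over 4.31 to 7.64 CPM in E64d and 2.22 to 9.50 CPM in DMSO, and cryba2b over 5.83 to 11.1 CPM in E64d and 5.33 to 9.81 CPM in DMSO. cryba1l2 was near the threshold, at 1.59, 1.93, 3.32 and 2.89 CPM in E64d, against 0.854, 1.22, 2.09 and 3.01 CPM in DMSO.

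The basic beta crystallin gene crybb3 did not follow the others in DMSO. It stood at 1.07, 0.996, 2.36 and 1.18 CPM in E64d, against 2.28, 2.86, 1.20 and 0.548 CPM in DMSO. In DMSO its high pools were 1 and 2, the pools in which the other beta crystallins were low. The remaining beta crystallin genes were not on: crybb1l3 had 40 counts over the E64d pools and 23 over the DMSO pools, cryba1a had 13 in E64d and 16 in DMSO, and crybb2 had 6 in E64d and 4 in DMSO.

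Beta crystallin genes lie partly in tandem pairs of 1 acidic and 1 basic gene. In the gene order of the RefSeq annotation of GRCz12tu, which was used for names and neighbours only because the counts were made on GRCz11, 4 such pairs had no gene between them. In 3 pairs both genes were on (cryba1l1 with crybb1l1, cryba4 with crybb1, cryba1l2 with crybb1l2), and in the fourth, cryba1a with crybb1l3, neither was. By their start and end positions the genes of this last pair overlap each other, and cryba1a also overlaps unc119a1. How far they overlap was not measured. Some reads of these genes may not be told apart without a stated strand setting.

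The gamma N gene crygn2 was on. It stood at 8.03, 9.14, 15.6 and 12.0 CPM in E64d, against 8.98, 4.43, 16.1 and 13.5 CPM in DMSO, with pools 3 and 4 again the high ones. Its paralog crygn1 was not on and was not tested. It had 6, 8, 6 and 10 counts in the E64d pools, against 2, 0, 0 and 1 counts in the DMSO pools. Every E64d pool thus lay above every DMSO pool, with at most 10 counts in a library. The groups did not overlap in 14.4% of the 22163 tested genes, a set that does not include crygn1. In GRCz12tu crygn1 overlaps the coding gene ly97.3, and whether reads were shared was not tested. Without the filter on low counts crygn1 did not pass (log2 fold change 3.11, adjusted p = 0.203 by edgeR). It was singled out after its counts were seen.

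Most genes of the gamma M group were below the threshold of 1 CPM. All 19 crygm2d copies with an entry had at least 1 count somewhere. Together they summed to 3.53, 4.74, 8.65 and 5.28 CPM in E64d, against 1.64, 3.06, 8.87 and 7.98 CPM in DMSO. The 1 copy counted as on, crygm2d8, stood at 0.389, 1.82, 2.34 and 0.853 CPM in E64d, against 0.316, 0.641, 3.25 and 2.07 CPM in DMSO. Further copies that passed the filter were crygm2d3, crygm2d7, crygm2d10, crygm2d13, crygm2d20 and crygm2d21, and crygm2d21 had no count in DMSO pools 1 and 2. These copies resemble each other closely. How multi-mapping reads were counted is not given in the sources used here, so levels of single copies are uncertain. Whether this also lowered the counts of the gamma genes at 0 throughout was not tested.

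The 8 genes at 0 throughout were crygm1, crygm2a, crygm2c, crygm2e, crygm2f, crygm6, crygm7 and crygmxl1. All of them lie in 1 tandem run, which in GRCz12tu reaches from crygm7 to crygs3 and holds 39 genes, 32 of them among the 58. The other 7 include the copies crygm2d17 and crygm2d19, which had no entry of that name among the counts. Of these 32 genes, crygm2d8 was the 1 that was on. The gamma MX genes crygmx and crygmxl2, which lie elsewhere and side by side apart from 1 noncoding gene, were both on by the mean over 8 libraries. crygmxl2 reached the threshold through the E64d pools, with a mean of 1.38 CPM in E64d and 0.657 CPM in DMSO. crygmx stood at 1.49, 1.11, 1.32 and 1.58 CPM in E64d, against 1.01, 0.991, 2.39 and 1.46 CPM in DMSO. The 4 gamma S genes had 2 to 55 counts each over all libraries. crybgx had 10.

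**Figure D2:**
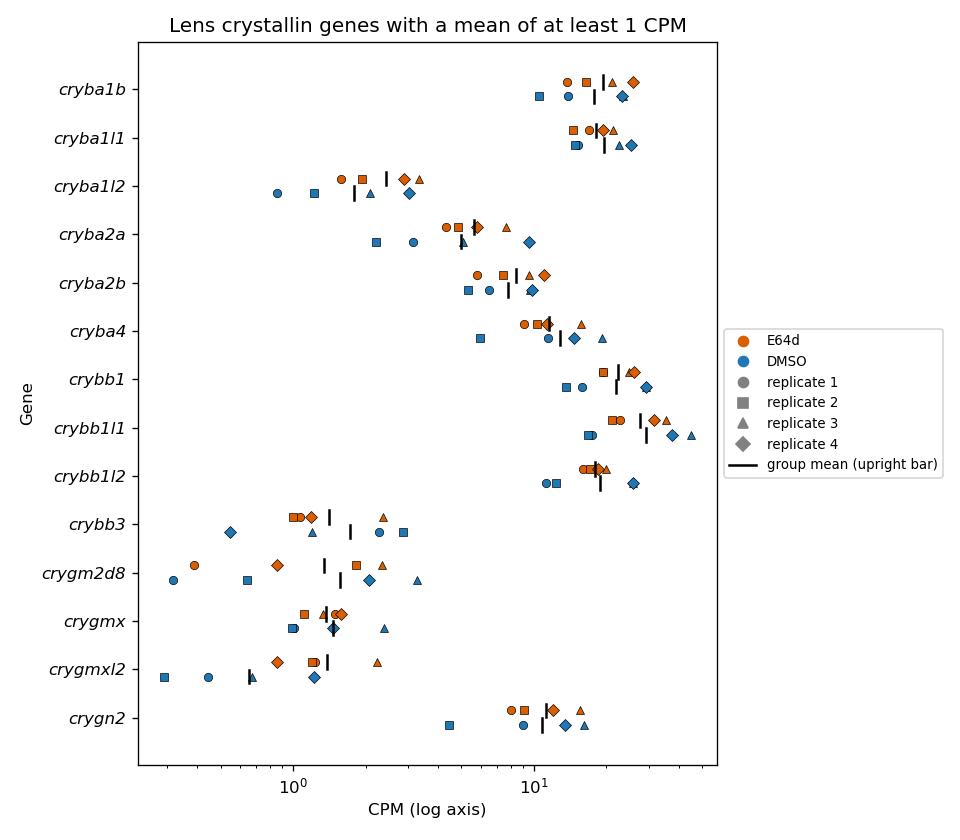
CPM (log axis) of the 14 lens crystallin genes that were on, with E64d pools in orange above DMSO pools in blue; marker shape gives the replicate number and the upright bar the group mean (n = 4). In all 14 genes the values of the groups overlap, and in most of them the circles and squares (replicates 1 and 2) lie left of the triangles and diamonds (replicates 3 and 4).

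Treatment with E64d was not followed by a detectable change of any lens crystallin gene. Of 23 crystallin genes tested among 22163 genes, 0 were called higher and 0 lower in E64d (edgeR's quasi-likelihood test, adjusted p under 0.05). Of all tested genes 6.13% were called (2.28% higher and 3.85% lower). At that share a set of 23 genes can hold no call. The 0 is therefore not read as a difference from other genes. At an unadjusted p under 0.05 there were 2 of the 23 genes, crybg1b and crygmxl2. The share of all tested genes at that limit was not computed, so this count is not read as a result. DESeq2 called 1 (crybg1b), where it called 9.96% of all tested genes and gave no adjusted p for crygmxl2, and limma-voom 0, where it called 5.8%. With other settings of edgeR the count was 0 with RLE scaling (background 5.96%), 1 with library totals alone (crybg1b; 5.87%), 0 of 50 without a filter on low counts (4.52%) and 0 of 17 with counts divided by 2 (6.67%). The groups did not overlap in 1 of the 23 tested crystallin genes, crybg1b, beside 14.4% of the 22163 genes. The 14 lens crystallin genes that were on had a median log2 fold change (E64d over DMSO) of -0.02, beside a median of 0.01 over all tested genes. Above 0 were 7 of the 14, beside 51.7% of all tested genes. The number was 9 with library totals alone (63.8% of all tested genes) and 9 with the replicate block (52.3%). Among the 14, crygmxl2 reached the threshold through the E64d pools (1.38 CPM in E64d, 0.657 CPM in DMSO). Its positive fold change is thus tied to the choice of the set, and it enters these medians and numbers. Summed over the 56 lens crystallin genes, the level was 156 ± 31.9 CPM in E64d and 156 ± 61.0 CPM in DMSO (SD, n = 4 each).

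The size of change that these data leave possible differed between genes. For crybb1 the log2 fold change was 0.03 ± 0.23 (SE), with a 95% interval from -0.47 to 0.52 and an adjusted p of 0.966 by edgeR. For crybb1l1 it was -0.07, with an interval from -0.70 to 0.55, for cryba1l1 -0.11 (-0.50 to 0.28) and for crygn2 0.06 (-0.64 to 0.76). A log2 change of 1 in either direction lay outside these intervals, whereas for crygm2d8 the interval ran from -1.64 to 1.22. The other beta crystallins that were on had log2 fold changes between -0.29 for crybb3 and 0.44 for cryba1l2.

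crygmxl2, a gamma MX gene, had the largest difference among the lens crystallin genes that passed the count filter. It stood at 1.23, 1.20, 2.23 and 0.853 CPM in E64d, against 0.443, 0.291, 0.675 and 1.22 CPM in DMSO. DMSO pool 4 lay among the E64d pools, and the groups overlapped. The log2 fold change was 1.07 ± 0.48 (SE), with an unadjusted p of 0.0449 and an adjusted p of 0.235 by edgeR, so the difference did not pass.

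The crybg1 genes are the members known outside the lens. crybg1b stood at 51.8, 53.4, 51.9 and 59.8 CPM in E64d, against 45.7, 37.2, 47.9 and 43.9 CPM in DMSO, so that every E64d pool was above every DMSO pool. The log2 fold change was 0.31 ± 0.09 (SE), with an adjusted p of 0.0661 by edgeR. With the replicate number as a block it was 0.32 ± 0.08 and passed (adjusted p = 0.0285 by edgeR; 1 of 23 crystallin genes, beside 11.6% of all tested genes). That call was lost when both libraries numbered 3 or both numbered 4 were left out (adjusted p = 0.0558 and 0.153 by edgeR). The log2 fold change was then 0.38 and 0.27. These fits have fewer libraries, and the share of all tested genes that they called was not computed. crybg1a stood at 78.9, 84.8, 86.4 and 88.1 CPM in E64d, against 79.7, 64.6, 91.2 and 82.5 CPM in DMSO, with overlapping groups (log2 fold change 0.09 ± 0.10, adjusted p = 0.684 by edgeR). Whether crybg1a and crybg1b differed in their response was not tested.

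**Figure D3:**
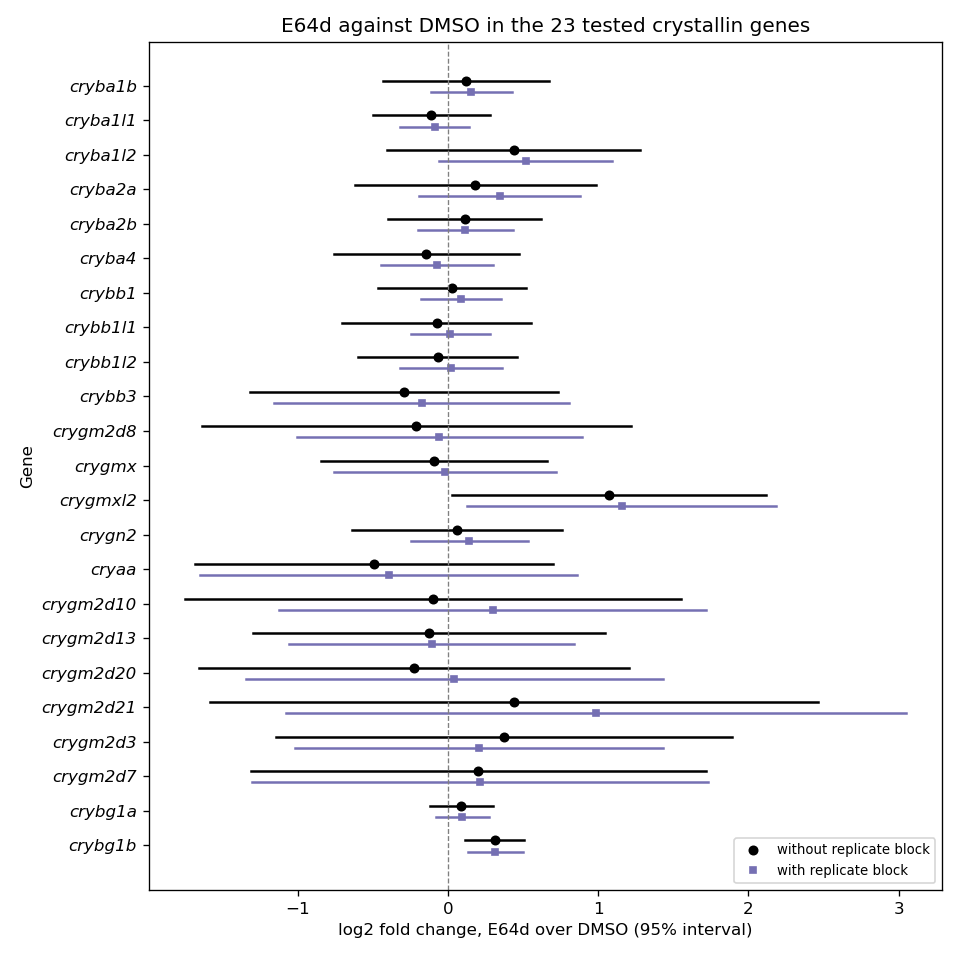
Log2 fold changes (E64d over DMSO) of the 23 tested crystallin genes with 95% intervals, from the fit without the replicate block (black circles) and with it (purple squares). The intervals of 20 lens genes include 0 in both fits; those of crygmxl2 and crybg1b do not, and the crybg1 genes at the bottom have the narrowest intervals.

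Lens crystallin level varied between the pools of a group. The 13 beta crystallin genes summed to 111, 114, 161 and 154 CPM in E64d pools 1 to 4, against 98.0, 85.7, 184 and 179 CPM in DMSO pools 1 to 4. The 39 gamma crystallin genes summed to 15.1, 16.8, 28.3 and 20.8 CPM in E64d, against 12.6, 9.24, 28.4 and 24.5 CPM in DMSO. In both families, and in both groups, pools 3 and 4 were the high ones. The beta sum of the highest pool was 1.46 times that of the lowest in E64d and 2.14 times in DMSO, and the gamma sum 1.88 times in E64d and 3.07 times in DMSO. DMSO pool 2, the library that stood apart, had the lowest beta and gamma sums. Without it the beta sum's log2 ratio was -0.14, in place of 0.05, and that of the gamma sum -0.07, in place of 0.22. Over omissions of single libraries the ratios were -0.14 to 0.22 (beta) and -0.07 to 0.47 (gamma). Both were highest without DMSO pool 3.

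**Figure D4:**
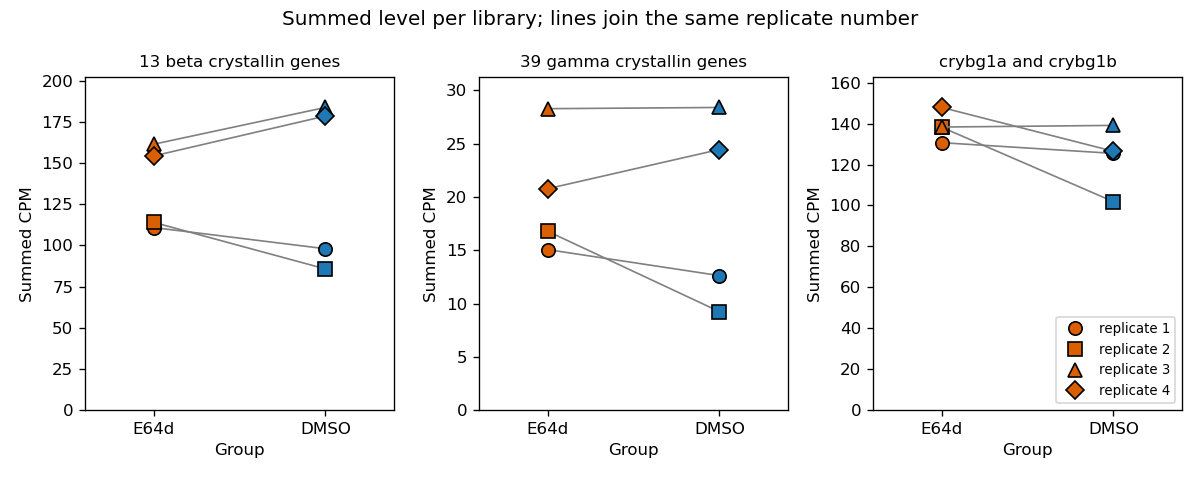
Summed CPM of the 13 beta crystallin genes, the 39 gamma crystallin genes and the crybg1 pair in each library, E64d left and DMSO right; lines join libraries with the same replicate number. In the first and second panels replicates 3 and 4 lie above replicates 1 and 2 in both groups; for the crybg1 pair the order is the same, but replicates 2 and 3 in E64d (138 and 138 CPM) and replicates 1 and 4 in DMSO (125 and 126 CPM) nearly coincide.

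Gene by gene, 13 of the 14 lens crystallins that were on lay above their group's mean (on the log2 scale) in E64d pool 3, and 10 in E64d pool 4. In E64d pools 1 and 2 the number was 1 each. In DMSO pools 3 and 4 it was 13 each, and in DMSO pools 1 and 2 again 1 each. The matching shares of all tested genes were not computed. The coefficient of variation between pools had a median of 26.6% in E64d and 46.4% in DMSO over these 14 genes. Among all 12383 tested genes with means in the same range of CPM it was 15.0% in E64d and 18.1% in DMSO.

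**Figure D5:**
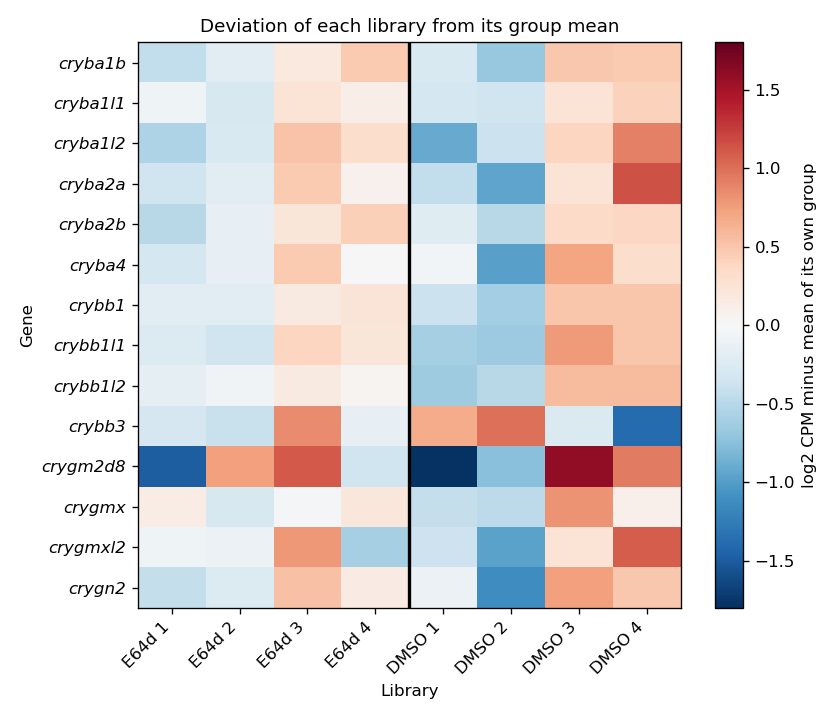
Deviation of each library from the mean of its own group, as log2 CPM, for the 14 lens crystallin genes that were on; E64d libraries stand left of the black line and DMSO libraries right. Red marks values above the group mean. Replicates 3 and 4 are mostly red and replicates 1 and 2 mostly blue in both groups; crybb3 runs the other way in DMSO.

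A test for differences between the 4 replicate numbers, chosen after these values were seen and fitted over all genes with the group as a term, called 3 of the 23 tested crystallin genes by edgeR. These were cryba1b, crybb1 and crybb1l1, with adjusted p-values of 0.0203, 0.0413 and 0.00613. Of all tested genes 2.36% were called. With the replicate number as a block, the standard errors of the 14 lens genes were, at the median, 0.64 times those without it, and still none of the 14 was called between E64d and DMSO (lowest adjusted p = 0.145 by edgeR, for crygmxl2). For crybb1l1 the log2 fold change with the block was 0.02, with an interval from -0.25 to 0.28, and for crybb1 it was 0.09 (-0.18 to 0.36).

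Some other genes of lens fibres also varied with the replicate number. mipa, which encodes the lens aquaporin, stood at 5.15, 9.66, 15.0 and 13.8 CPM in E64d, against 3.92, 3.85, 15.9 and 14.6 CPM in DMSO. It and mipb differed between replicate numbers (adjusted p = 0.0081 and 0.0427 by edgeR), and were the only called genes among 14 tested in the list of other lens fibre genes. Outside the lens, 5 of 14 skeletal muscle genes differed between the numbers as well: acta1b, myhz2, tnni2a.4, tnnt3a and tnnt3b. That test gives no direction. Pools 3 and 4 lay above pools 1 and 2 in both groups for tnni2a.4, tnnt3a and tnnt3b, and in DMSO only for myhz2. For acta1b they did so in neither group. In E64d pools 1 to 4 acta1b stood at 346, 536, 470 and 471 CPM, and myhz2 at 690, 621, 1098 and 668 CPM. The summed muscle list stood at 10080.5, 10331, 11522 and 11085 CPM in E64d, against 9824, 10469, 12841 and 12213 CPM in DMSO, also highest in pools 3 and 4. That test called 0 of 13 lens transcription factors, 0 of 16 retina, 0 of 16 other placode and 0 of 7 small heat shock protein genes. Their lowest adjusted p was 0.0567 by edgeR, for sox1a. Since 2.36% of all tested genes were called, lists of this size can hold no call, and these counts are not read as a difference between lists. What the replicate numbers stand for is not given in the labels, and the part of muscle content or embryo stage in the crystallin levels was not tested.

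The lens was checked by listed lens genes, not all of them limited to the lens. foxe3, a transcription factor of the lens epithelium, stood at 3.86 ± 0.564 CPM in E64d and 3.98 ± 0.933 CPM in DMSO. pitx3, a transcription factor of lens and pituitary, stood at 16.9 ± 2.55 CPM in E64d and 15.1 ± 1.18 CPM in DMSO, and gja8b, a lens connexin, at 10.3 ± 2.07 CPM in E64d and 10.7 ± 3.55 CPM in DMSO (SD, n = 4 each). Of the 20 fibre genes of the list with an entry, 11 had a mean of at least 1 CPM over the 8 libraries: mipa, mipb, lim2.1, lim2.3, lim2.4, gja3, gja8b, epha2a, epha2b, rbm24a and tdrd7a. The other 9 were below it: bfsp2, gja8a, lctla, lctlb, lim2.2, grifin, lgsn, dnase1l1l and lim2.5, the last at 0 in all libraries. Among these, lctlb stood at 1.01 CPM in E64d and 0.950 CPM in DMSO, and grifin at 0.242 ± 0.228 CPM in E64d and 0.108 ± 0.127 CPM in DMSO. Of the 14 listed lens transcription factors with an entry, 13 had a mean of at least 1 CPM, and hsf4, at 0.139 CPM, did not. The lens share of the RNA of the listed genes was not measured.

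Of the 80 tested genes in the 6 lists, 0 were called between E64d and DMSO, beside 6.13% of all tested genes. At that share a single list of 7 to 16 genes can hold no call, so the lists are not read one by one. Of 13 tested lens transcription factors 0 were called, with a median log2 fold change of 0.14, and of 14 tested fibre genes other than crystallins 0, with a median of 0.02. The corresponding counts and medians were 0 of 16 and 0.10 for retina and optic cup, 0 of 16 and 0.14 for other placodes, 0 of 7 and 0.02 for small heat shock proteins, and 0 of 14 and -0.06 for skeletal muscle. The genes with the smallest p of each list were mafbb, epha2a, crx, neurog1, hspb7 and acta1b, at adjusted p-values of 0.0617, 0.316, 0.358, 0.178, 0.153 and 0.145 by edgeR.

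With the replicate block 3 of the 80 tested list genes were called (3.75%), fewer than the 11.6% of all tested genes. mafbb, a Maf family transcription factor gene, fell to 39.7 ± 4.35 CPM in E64d, against 51.3 ± 6.35 CPM in DMSO (log2 fold change with the block -0.37, adjusted p = 0.00563 by edgeR). prox1a is a homeobox gene that promotes fibre differentiation in the mammalian lens and is also active in muscle and liver. It stood at 48.0 ± 3.22 CPM in E64d, against 40.1 ± 3.13 CPM in DMSO. Its log2 fold change with the block was 0.26 (adjusted p = 0.0403 by edgeR, and 0.0953 without the block). acta1b, a skeletal actin gene, fell to 455 ± 79.5 CPM in E64d, against 580 ± 81.8 CPM in DMSO (-0.35, adjusted p = 0.00224). None of the 3 was called without the block, and their calls were not checked by leaving out pairs of libraries. All 3 are expressed outside the lens, and in whole embryos the lens share of their RNA was not measured.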

How the data were processed

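Whole-embryo RNA was isolated with TRIzol, and the VAHTS Universal V8 kit gave the libraries, per the labels. The deposited table holds raw counts of reads per gene, made by the authors. The submitters' processing notes name the build GRCz11, featureCounts 2.0.6, STAR 2.7.10b, Trim Galore 0.6.10 and FastQC 0.12.1. The sources used here give neither the annotation nor the strand setting nor how multi-mapping reads were counted. In the RefSeq annotation of GRCz12tu 5 of the 16 genes that were on overlap another gene (cryba2a, crybb1l2, crybg1a, crygmx and crygmxl2). Some genes that were not on do so too, among them cryaa (hsf2bp), cryabb (hspb2 and cfap68), cryba1a (crybb1l3 and unc119a1) and crygn1 (ly97.3). Overlap was taken from gene start to gene end, introns included and strand ignored. Whether any counted reads were shared was not tested. A further 6 columns with no sample name were not used.

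The quasi-likelihood test of edgeR 4.0.16, run in R 4.3.3, was applied to the counts after filterByExpr at its defaults and TMM scaling, with Benjamini-Hochberg adjustment over 22163 genes at 0.05. Alternatives used DESeq2 1.42.0 and limma 3.58.1. Standard errors were derived from the test statistic. The code was tested on simulated data. Of counts from 1 to 20, 75.9% to 80.7% were even in each library, the pattern of both mates being counted, so counts divided by 2 were an alternative. Apart from the shared threshold of 1 CPM, levels were not compared between genes, since no transcript lengths were at hand. No sequences are shown.

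Of 98 genes in 6 lists, 93 had an entry of that name (maf, bfsp1, gje1a, gje1b and plaat1 did not). Genes named are the members with a mean of at least 1 CPM or a call, and from each list the called genes or else the one with the smallest p. Other list genes, and members below 1 CPM such as crygn1, were named outside this rule after their values were seen. The members and lists were chosen with earlier results of these data known.

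To learn whether libraries of the same replicate number belong together, deviations of log2(CPM + 0.5) from the group means were correlated across genes. The correlation was 0.122 to 0.413 for libraries of the same number and -0.239 to 0.089 for the rest, so every pair exceeded 0.1 and the numbers were taken as pairs. The pairing comes from the data, not from the labels. Whether the wells came from separate clutches is not given, so p-values measure the spread between these pools.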

Additional observations from a re-analysis of the deposited data

Results flagged for a closer look

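In E64d pool 3 the beta crystallin gene crybb3 stood at 2.36 CPM, apart from the other E64d pools at 1.07, 0.996 and 1.18 CPM. The gap exceeded the limit of 0.829 that Dixon's test sets for 4 samples. Of 40 groups of values examined (16 genes and 4 family sums in each of the 2 treatments) this was the 1 that did so, and chance gives about 1 in 20. Without E64d pool 3 the log2 fold change of crybb3 was -0.67, in place of -0.29, and neither passed (adjusted p = 0.55 and 0.801 by edgeR).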

How the results depend on the processing

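No lens crystallin gene was called under any of the alternatives run. The count called higher was 1 in place of 0 (crybg1b) under library totals alone (log2 fold change 0.39, adjusted p = 0.0398 by edgeR), with DESeq2 (0.31, adjusted p = 0.0235), with the replicate block (0.32), and with the block when both libraries numbered 1 or both numbered 2 were left out (1 and 1; 0.37 and 0.25). The last alternative was chosen after seeing the data. The count was 0 when single libraries were left out, over which the log2 fold change of crybg1b ranged from 0.25 to 0.36 (lowest adjusted p = 0.0684 by edgeR). For fits with libraries left out, the share of all tested genes called was not computed. Of 244 values of single genes under alternatives 31 changed sign, and none of these was called. Those beyond single omissions were crybb1l1 (0.0072 under library totals, 0.037 with limma-voom, 0.017 with the block), crybb1l2 (0.013, 0.040 and 0.021) and crygm2d8 (0.077 with limma-voom). Over omissions of single libraries the log2 fold change ranged from -0.060 to 0.28 for cryba1b, -0.22 to 0.041 for cryba1l1, -0.056 to 0.70 for cryba2a, -0.043 to 0.25 for cryba2b, -0.38 to 0.12 for cryba4, -0.14 to 0.20 for crybb1, -0.26 to 0.21 for crybb1l1, -0.24 to 0.12 for crybb1l2, -0.67 to 0.074 for crybb3, -0.62 to 0.42 for crygm2d8, -0.24 to 0.25 for crygmx and -0.20 to 0.32 for crygn2. Without a change of sign it was 0.73 to 1.55 for crygmxl2, 0.22 to 0.81 for cryba1l2 and 0.0048 to 0.16 for crybg1a. The number of genes on was 18 at a minimum of 0.5 CPM and 12 at 2 CPM. The cause of these shifts was not tested. For genes of a few counts per library, depth limits what can be seen.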
